A study of Mus musculus with 6 samples.

Results

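The set described here holds 48 mouse genes of fat making and fat storage in the liver: enzymes that build fatty acids and triglyceride, the factors that switch those enzymes on, and the proteins and lipases of the lipid droplet. They were chosen by name, from what they are known to do, but with earlier results of these data known. Each was represented by the probe set of the array that names only that gene and has the highest mean over all arrays. A total of 44 of the 48 genes were measured in this way, among 17097 genes in all, and Srebf1, Scd2, Agpat2 and Cidec were not analysed here. Of the 44, 26 belong to synthesis, 16 to droplets and lipolysis, and 2 (Fabp1 and Cd36) to fatty acid binding and uptake.

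Liver RNA came from DeltaKlf6 mice, which lack Klf6 in hepatocytes only, and from wildtype mice, both C57Bl/6, sampled 12 h after a partial hepatectomy, in which surgery took 70% of the liver and the remnant began to regrow. Each of 3 DeltaKlf6 and 3 wildtype mice gave 1 array, taken from 6 animals per group in the overall study, and the resection was shared by both groups. Klf6 is a zinc-finger transcription factor, and the comparison asked which liver transcripts differ when hepatocytes lack it. The sources used here give no age, sex or promoter driving the hepatocyte deletion.

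Hepatocytes make fatty acids from acetyl-CoA by way of malonyl-CoA, a route switched on by SREBP1c (from Srebf1) and ChREBP (from Mlxipl). The chains are desaturated and elongated, joined to glycerol as triglyceride, and held in droplets whose coat proteins govern the access of lipases. A regenerating liver fills with droplets for a time after partial hepatectomy, when fatty acids reach the remnant from adipose tissue.

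The library labelled DeltaKlf6 1 went against its label in Klf6 itself: its 3 Klf6 probe sets lay 2.13, 1.82 and 2.12 above the wildtype mean on the log2 scale. Those of DeltaKlf6 2 lay at -0.87, 0.05 and -0.30, and those of DeltaKlf6 3 at -0.86, -0.32 and -1.75. The position of these probe sets against the deleted exons was not analysed here. Array controls gave a mixed picture of DeltaKlf6 3: its Gapdh 3'-minus-5' signal was 4.83, above the wildtype arrays at 4.06 to 4.43, but its actin 3'-minus-5' signal of 5.05 lay within theirs, 4.86 to 5.39. DeltaKlf6 1 and 2 lay below wildtype in both, at 3.47 and 3.45 for Gapdh and at 4.22 and 3.998 for actin. The upper quartile of all values was 5.53, 5.63 and 5.08 in DeltaKlf6 1, 2 and 3, with the wildtype arrays at 5.50 to 5.51. Array medians ran from 3.30 to 3.45. The hepatocyte genes Alb (12.52 to 13.33) and Ttr (13.21 to 13.29) were near the top of the scale on all 6 arrays, and of 5 adipocyte genes measured Adipoq (2.06 to 3.02) and Lep (2.12 to 2.62) lay under every array median. The other adipocyte genes lay above the medians, with Retn at 3.48 to 4.39, Fabp4 at 9.26 to 10.34 and Car3 at 11.86 to 12.55. All 5 were lower in DeltaKlf6 by group mean, for Adipoq and Lep only among values under the medians. Log2 of their summed level was 12.09 to 12.77 in DeltaKlf6 and 12.54 to 12.78 in wildtype. That sum is set almost wholly by Car3 and Fabp4 and holds little of Adipoq, Lep or Retn. The part of adipocytes in the lipid gene values was not tested. All differences below are between libraries as labelled, and the expression values are log2 values of the authors' RMA normalization.

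No lipid gene passed the test between DeltaKlf6 and wildtype livers. By limma with Benjamini-Hochberg adjustment over all genes, 0 of the 44 had an adjusted p under 0.05, where percent called among all genes was 0; at an unadjusted p under 0.05 there were 631 genes in all. At that unadjusted level 4 of the 44 were lower in DeltaKlf6 (Fitm2, Mgll, Fads2 and Acacb), beside 2.48% of all genes, and 1 was higher (Fads3), beside 1.21% of all genes. The 3 DeltaKlf6 arrays lay wholly below the 3 wildtype arrays for 4 genes (Fitm2, Mgll, Fads2 and Hsd17b13), beside 5.91% of all genes, and wholly above them for 0, beside 3.41%. By group mean 25 of the 44 were lower in DeltaKlf6, beside 51.6% of all genes, and the median log2 difference was -0.14, against -0.01 over all genes. Without DeltaKlf6 1, the library with high Klf6, 6 genes lay wholly below wildtype and 1 above, beside 10.8% and 7.31% of all genes. Without DeltaKlf6 2 these were 9 and 0, beside 13.8% and 8.58%, and without DeltaKlf6 3 they were 9 and 6, beside 12.8% and 12.6%. The number at an unadjusted p under 0.05, which was 5 beside 3.69% of all genes, was 11 without DeltaKlf6 3, beside 9.04%, and 2 without wildtype 3, beside 2.22%. In whole liver, fewer cells of a type and less RNA per cell cannot be told apart.

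**Figure D1:**
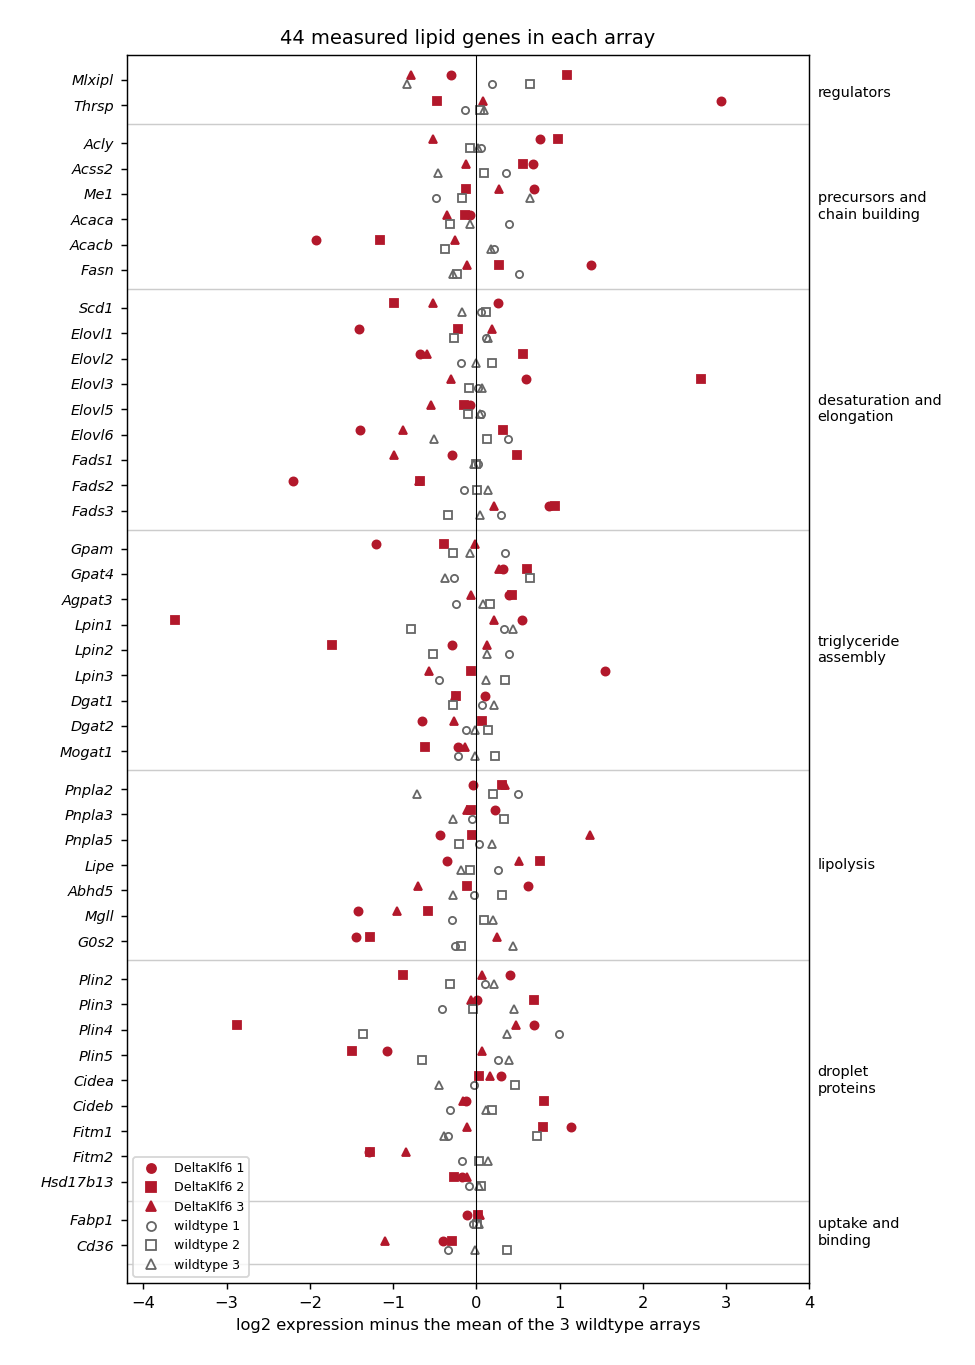
Log2 expression of the 44 measured lipid genes in each array, minus the mean of the 3 wildtype arrays (horizontal axis, log2 units), with genes grouped by role. Filled red symbols are DeltaKlf6 arrays and open grey symbols wildtype arrays; Fitm2, Mgll, Fads2 and Hsd17b13 have all red symbols left of all grey ones, while Thrsp, Elovl3, Lpin1 and Plin4 have 1 red symbol far from the rest.

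The lowest p among the 44 belonged to Fitm2, a protein of the endoplasmic reticulum needed for droplets to bud from it. Fitm2 stood at 7.27, 7.28 and 7.72 in DeltaKlf6 1, 2 and 3, against 8.40, 8.60 and 8.70 in wildtype 1, 2 and 3. The groups were apart by more than their own spread, and the DeltaKlf6 mean of 7.43 ± 0.26 against 8.57 ± 0.15 in wildtype (SD, n = 3 each) is a 2.20-fold lower level. The log2 difference was -1.14 (SE 0.22, limma unadjusted p = 0.000987, adjusted p = 0.992). It was -1.06 without DeltaKlf6 1, and -1.29 to -1.06 over all 15 alternatives. Fitm1, its close relative, was higher by group mean at 7.56, 7.22 and 6.31 in DeltaKlf6, against 6.08, 7.15 and 6.03 in wildtype, and there the groups overlapped (log2 difference 0.61, SE 0.42).

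Mgll encodes monoacylglycerol lipase, which frees the last fatty acid of a broken-down triglyceride. Mgll stood at 7.56, 8.40 and 8.02 in DeltaKlf6, against 8.68, 9.07 and 9.18 in wildtype, a gap between the groups that left the highest DeltaKlf6 array under the lowest wildtype one. Its log2 difference was -0.98 (SE 0.28, limma unadjusted p = 0.00751, adjusted p = 0.992). All 4 probe sets of Mgll were lower in DeltaKlf6, by log2 differences of -0.98, -0.78, -1.22 and -0.32, and the probe set at -1.22 was dim in DeltaKlf6, at 3.44, 3.23 and 3.58. Without DeltaKlf6 1 the difference was -0.77.

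Fads2, the desaturase that opens the route to polyunsaturated fatty acids, lay at 7.06, 8.59 and 8.58 in DeltaKlf6, against 9.13, 9.28 and 9.40 in wildtype. DeltaKlf6 1 was far below the other two DeltaKlf6 arrays, and all 3 were below wildtype. The log2 difference was -1.19 (SE 0.41, limma unadjusted p = 0.0202, adjusted p = 0.992), and -0.68 without DeltaKlf6 1. The probe sets of Fads2 disagreed: 2 were lower in DeltaKlf6, at -1.19 and -1.37, and the third was at 0.08.

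Acacb makes the malonyl-CoA at mitochondria that restrains fatty acid entry there. Acacb was at 5.48, 6.25 and 7.16 in DeltaKlf6 and at 7.62, 7.03 and 7.59 in wildtype, so that DeltaKlf6 3 lay inside the wildtype range and the other two under it. The log2 difference was -1.11 (SE 0.41, limma unadjusted p = 0.0282, adjusted p = 0.992), -0.70 without DeltaKlf6 1 and -1.54 without DeltaKlf6 3. A dim second probe set of the gene, at 2.59, 2.07 and 2.42 in DeltaKlf6 and 2.42, 2.50 and 2.39 in wildtype, gave -0.07. Hsd17b13, a retinol dehydrogenase of the droplet surface, did not overlap either, but over a narrow span: 10.38, 10.29 and 10.45 in DeltaKlf6, against 10.47, 10.62 and 10.59 in wildtype (log2 difference -0.19, SE 0.19).

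**Figure D2:**
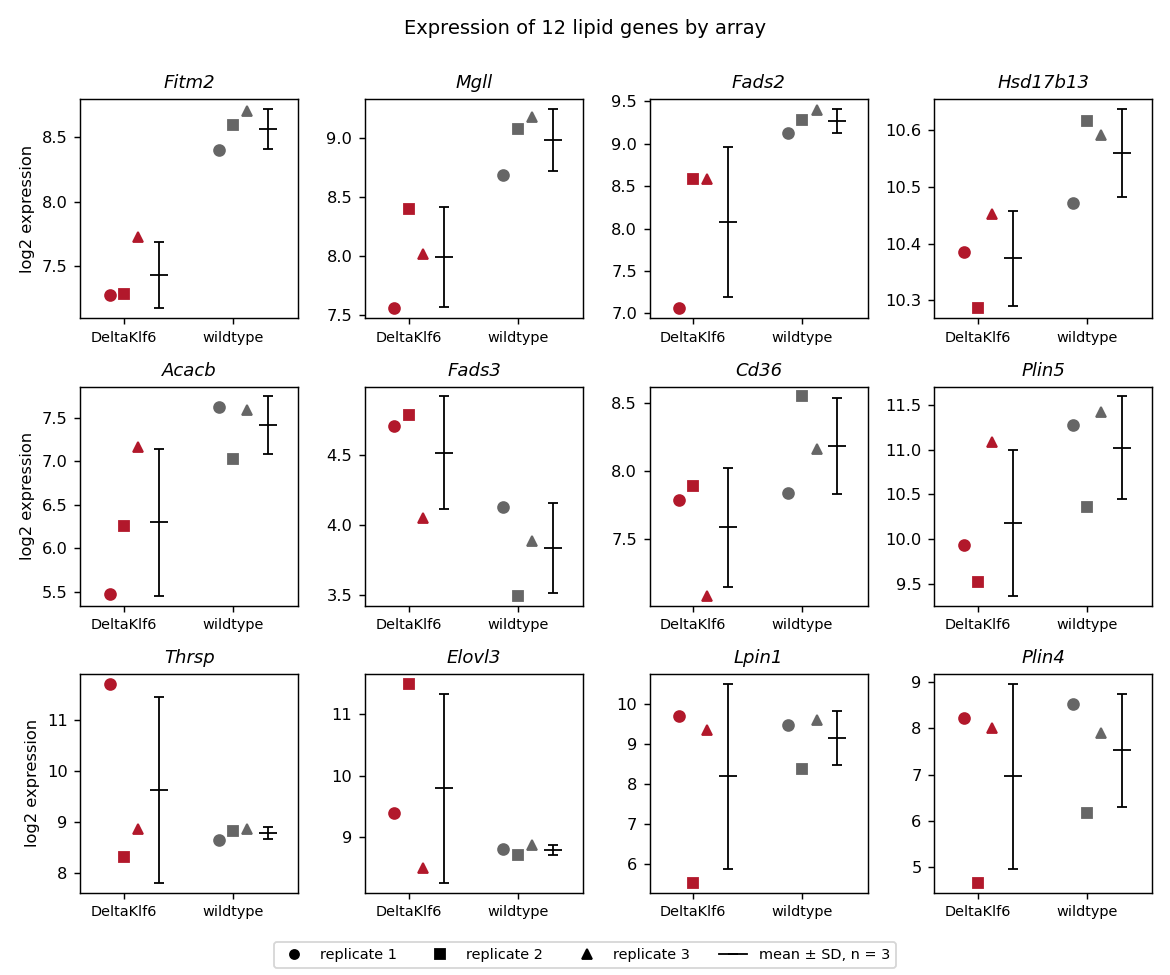
Log2 expression (vertical axis) of 12 lipid genes in the 3 DeltaKlf6 arrays (left, red) and the 3 wildtype arrays (right, grey), with symbol shape giving the replicate and black marks the mean ± SD of each group. The axis of each panel has its own range and does not start at 0: Fitm2 spans 7.27 to 8.70 and Hsd17b13 only 10.29 to 10.62.

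The promoters of the 4 genes lower in DeltaKlf6 at an unadjusted p under 0.05 are shown, since these members had the lowest p among the lower genes. Each is the RefSeq window of the GRCm38.p6 build from 250 bases before to 50 bases after an annotated gene start, read on the strand of the gene. Capitals mark matches on either strand to a GC box (GGGCGG, a site type of the Sp and Klf factors), a CACC box (CACCC, likewise), an E-box (CACGTG, a site type of SREBP1 and USF), a CCAAT box (CCAAT) and a nuclear receptor half-site (AGGTCA, the repeat unit of PPAR and LXR sites). In Fads2 the CACC box and the GC box share a base, and Mgll has another annotated start whose window is not printed.
Fitm2, chr2:163472580-163472879, minus strand: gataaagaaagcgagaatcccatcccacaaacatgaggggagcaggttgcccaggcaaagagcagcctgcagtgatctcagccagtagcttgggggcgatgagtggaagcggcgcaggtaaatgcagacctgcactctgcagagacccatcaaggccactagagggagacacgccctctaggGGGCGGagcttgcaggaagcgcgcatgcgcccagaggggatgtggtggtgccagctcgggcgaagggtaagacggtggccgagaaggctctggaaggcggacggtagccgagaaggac
Mgll, chr6:88724162-88724461, plus strand: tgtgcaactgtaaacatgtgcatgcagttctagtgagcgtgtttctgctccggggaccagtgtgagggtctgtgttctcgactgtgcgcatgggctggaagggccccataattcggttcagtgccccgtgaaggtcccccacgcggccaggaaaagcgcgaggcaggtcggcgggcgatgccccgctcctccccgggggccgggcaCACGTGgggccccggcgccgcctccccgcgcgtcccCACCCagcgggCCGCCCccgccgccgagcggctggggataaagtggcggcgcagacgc
Fads2, chr19:10101454-10101753, minus strand: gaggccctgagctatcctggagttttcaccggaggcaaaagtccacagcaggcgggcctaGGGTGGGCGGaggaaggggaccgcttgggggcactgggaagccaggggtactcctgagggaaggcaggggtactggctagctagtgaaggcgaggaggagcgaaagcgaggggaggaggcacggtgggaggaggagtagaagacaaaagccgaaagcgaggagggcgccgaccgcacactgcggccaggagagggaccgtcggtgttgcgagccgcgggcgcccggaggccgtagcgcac
Acacb, chr5:114165268-114165567, plus strand: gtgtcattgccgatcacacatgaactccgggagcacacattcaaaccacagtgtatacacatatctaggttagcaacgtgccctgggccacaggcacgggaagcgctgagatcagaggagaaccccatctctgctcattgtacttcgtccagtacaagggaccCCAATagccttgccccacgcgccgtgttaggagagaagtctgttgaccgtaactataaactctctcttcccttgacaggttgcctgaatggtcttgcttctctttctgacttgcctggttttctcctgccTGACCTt

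The windows of Fitm2, Mgll and Fads2 each hold 1 GC box, and that of Acacb holds 0. For comparison, a GC box stood in 57.4% of the 54 windows found for 40 of the 48 genes, beside 35.7% of all 32851 windows in the table. The CACC box stood in 53.7% of the lipid gene windows and 57.5% of all, and the CCAAT box in 40.7% and 37.4%. The E-box, found here in Mgll, stood in 14.8% and 7.15%, and the half-site, found here in Acacb, in 24.1% and 16.3%. A sterol response element (TCACNCCAC) stood in 1 lipid gene window, a start of Mlxipl, and in 1.24% of all windows. These are matches of letters only.

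Of the regulators, Mlxipl had equal group means and Thrsp was high in 1 library. Mlxipl, the glucose-responsive factor ChREBP, stood at 7.95, 9.33 and 7.47 in DeltaKlf6, against 8.44, 8.89 and 7.41 in wildtype (log2 difference 0.00, SE 0.54). DeltaKlf6 2 lay above every wildtype array and DeltaKlf6 1 and 3 within their range, and the difference was -0.54 without DeltaKlf6 2. Thrsp, a nuclear protein that follows lipogenic activity, was at 11.72, 8.31 and 8.86 in DeltaKlf6, against 8.64, 8.82 and 8.87 in wildtype. DeltaKlf6 1, the library with high Klf6, was thus the sole array above 9 for this gene. The log2 difference was 0.85 (SE 0.78), and -0.19 without DeltaKlf6 1. Its other probe set was also highest in DeltaKlf6 1, at 8.53, 5.43 and 4.22 in DeltaKlf6, against 3.91, 5.13 and 4.86 in wildtype.

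The enzymes that supply acetyl-CoA and NADPH and build the chain were mostly higher in DeltaKlf6 1 and not in DeltaKlf6 3. Of 6 such genes 4 were higher and 2 lower by group mean, with a median log2 difference of 0.33, and DeltaKlf6 1 lay above every wildtype array for 4 of the 6. Fasn, the fatty acid synthase, was at 9.98, 8.87 and 8.49 in DeltaKlf6, against 9.11, 8.36 and 8.32 in wildtype (log2 difference 0.51, SE 0.41), and the difference was 0.08 without DeltaKlf6 1. Acly, which cuts citrate to acetyl-CoA, stood at 9.32, 9.55 and 8.04 in DeltaKlf6, with wildtype at 8.62, 8.49 and 8.58. DeltaKlf6 1 and 2 were above and DeltaKlf6 3 was below the narrow wildtype range. Acaca, the cytosolic acetyl-CoA carboxylase, was at 7.80, 7.74 and 7.52 in DeltaKlf6, against 8.26, 7.56 and 7.79 in wildtype (log2 difference -0.18, SE 0.25), a difference under the spread of the wildtype arrays. Acss2, which activates acetate (0.37), and the malic enzyme gene Me1 (0.28) had log2 differences of the other sign, with overlapping groups.

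Desaturases and elongases were lower in DeltaKlf6 1 and 3 on average and higher in DeltaKlf6 2, there mainly through the elongase gene Elovl3. In DeltaKlf6 2 Elovl3 deviated by 2.70, and of the 9 genes 4 lay above every wildtype array and 3 below. The mean deviation of these 9 genes from wildtype was -0.48, 0.33 and -0.45 in DeltaKlf6 1, 2 and 3, while single wildtype arrays ran from -0.04 to 0.07. Here and below, wildtype deviations were taken from the mean of the same 3 wildtype arrays, which narrows their range. By group mean 7 of 9 genes were lower. Scd1, the main liver desaturase of saturated chains, stood at 11.99, 10.73 and 11.21 in DeltaKlf6, against 11.78, 11.84 and 11.55 in wildtype. DeltaKlf6 1 was above and the other two below all wildtype arrays; the log2 difference was -0.42 (SE 0.33), and -0.76 without DeltaKlf6 1 (limma unadjusted p = 0.0216, adjusted p = 0.984). Over all 15 alternatives the adjusted p of Scd1 was never under 0.825.

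Elovl3, an elongase of saturated and monounsaturated chains, was at 9.39, 11.49 and 8.50 in DeltaKlf6, against 8.81, 8.71 and 8.87 in wildtype. DeltaKlf6 1 and 2 lay above the narrow wildtype range, DeltaKlf6 2 by far the most, and DeltaKlf6 3 lay below it (log2 difference 0.9987, SE 0.66). Elovl6, which elongates palmitate, was at 6.54, 8.26 and 7.06 in DeltaKlf6 and at 8.32, 8.07 and 7.42 in wildtype (log2 difference -0.65, SE 0.45). The other elongases Elovl1 (-0.48), Elovl2 (-0.24) and Elovl5 (-0.26) had log2 differences of that sign with overlapping groups. Fads1, Fads2 and Fads3 all lie on chromosome 19. Fads1, which acts after Fads2, lay at 9.04, 9.83 and 8.35 in DeltaKlf6 around a tight wildtype group at 9.36, 9.34 and 9.31. Fads3, a relative that acts on sphingoid bases, was the 1 gene higher at an unadjusted p under 0.05, at 4.71, 4.78 and 4.05 in DeltaKlf6, against 4.13, 3.50 and 3.88 in wildtype (log2 difference 0.68, SE 0.28, limma unadjusted p = 0.0429, adjusted p = 0.992). DeltaKlf6 3 lay inside the wildtype range, and 1 of the 3 Fads3 probe sets had the other sign. The gene was dim and fell out under the filter on dim genes, which left 0 lipid genes higher at that level.

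Triglyceride assembly was low in DeltaKlf6 2 by way of the lipins. Over 9 genes the mean deviation was 0.06, -0.62 and -0.08 in DeltaKlf6 1, 2 and 3, with single wildtype arrays between -0.04 and 0.05. Lpin1, a phosphatidate phosphatase that also acts as a coactivator in the nucleus, stood at 9.69, 5.53 and 9.36 in DeltaKlf6, against 9.48, 8.37 and 9.60 in wildtype. Lpin2, its paralog, was at 10.85, 9.40 and 11.27 in DeltaKlf6, against 11.54, 10.62 and 11.27 in wildtype. In both groups the array numbered 2 was the lowest for both genes. The same held for Plin2, Plin4 and Plin5, so 5 of 44 lipid genes had this pattern, close to the 11% of all genes that had it. DeltaKlf6 2 also had the highest mean of the 8 Kupffer cell markers, 8.35, against 7.34 to 7.71 in wildtype (7.55 to 8.35 over DeltaKlf6). Log2 of their summed level was 11.44 to 12.12 in DeltaKlf6 and 11.32 to 11.49 in wildtype. The high mean was not particular to Kupffer cells. DeltaKlf6 2 was likewise highest in the means of hepatocyte markers (11.65, wildtype 11.20 to 11.29) and stellate cell markers (6.60, wildtype 5.91 to 6.30). The part of any of these cells in the values was not tested.

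Gpam, the mitochondrial acyltransferase that starts triglyceride assembly, was at 8.96, 9.77 and 10.16 in DeltaKlf6, against 10.52, 9.89 and 10.10 in wildtype. DeltaKlf6 1 and 2 were under the wildtype range; the log2 difference was -0.54 (SE 0.34), and -0.20 without DeltaKlf6 1. Dgat1, which catalyses the closing step, was at 8.17, 7.82 and 7.80 in DeltaKlf6, against 8.13, 7.79 and 8.27 in wildtype (log2 difference -0.13, SE 0.23). Dgat2, the other diacylglycerol acyltransferase, was at 9.82, 10.54 and 10.21 in DeltaKlf6, against 10.35, 10.62 and 10.45 in wildtype (log2 difference -0.28, SE 0.24). Both differences lie close to or under the spread between replicates, and the second probe sets of Dgat1 (0.07) and Dgat2 (0.24) had the other sign. That of Dgat1 was dim, at 2.79 to 3.73. Gpat4 (0.40), Agpat3 (0.25), Lpin3 (0.31) and Mogat1 (-0.32) completed the group with overlapping values; Lpin3 and Mogat1 had means under the highest array median.

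Among lipases and their partners Mgll stood alone, and the probe sets of several others gave little signal. Pnpla2, the lipase that begins triglyceride breakdown, was at 2.72, 3.07 and 3.11 in DeltaKlf6, against 3.27, 2.97 and 2.05 in wildtype, all under every array median. Pnpla3, a droplet hydrolase whose human variant is tied to fatty liver, was at 3.48, 3.19 and 3.14 in DeltaKlf6, against 3.19, 3.59 and 2.97 in wildtype. In all, 5 of the 44 genes (Pnpla2, Pnpla3, Cidea, Lpin3 and Mogat1) had a mean under the highest array median, and detection calls were not analysed here. G0s2, the inhibitor of Pnpla2, was at 9.19, 9.35 and 10.87 in DeltaKlf6, against 10.37, 10.45 and 11.06 in wildtype. DeltaKlf6 1 and 2 lay below wildtype and DeltaKlf6 3 within it (log2 difference -0.83, SE 0.45); the difference was -1.36 without DeltaKlf6 3 and -0.52 without DeltaKlf6 1. Abhd5, the activator of Pnpla2, differed by -0.06, Lipe, the hormone-sensitive lipase, by 0.31 and Pnpla5 by 0.29 on the log2 scale, and each had overlapping groups.

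The perilipins, which coat the droplet, had overlapping groups in every member measured. Plin2, the main coat protein of hepatocyte droplets, was at 12.72, 11.44 and 12.39 in DeltaKlf6, against 12.42, 12.00 and 12.54 in wildtype (log2 difference -0.14, SE 0.35), and the difference was 0.23 without DeltaKlf6 2. Plin5, which ties droplets to mitochondria, was at 9.94, 9.52 and 11.09 in DeltaKlf6, against 11.28, 10.36 and 11.42 in wildtype (log2 difference -0.84, SE 0.45, limma unadjusted p = 0.0996). DeltaKlf6 1 and 2 were the lowest of the 6 arrays, and the difference was -1.29 without DeltaKlf6 3 and -0.51 without DeltaKlf6 2. Plin4 had the widest wildtype spread of these, at 8.22, 4.66 and 8.01 in DeltaKlf6 and 8.53, 6.16 and 7.89 in wildtype. Plin3 (0.21), Cidea (0.16) and Cideb (0.18), the last a droplet protein tied to lipoprotein loading, had small log2 differences with overlapping groups.

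Fabp1, the abundant fatty acid binding protein of hepatocytes, had overlapping groups, at 12.72, 12.85 and 12.86 in DeltaKlf6, against 12.78, 12.84 and 12.86 in wildtype (log2 difference -0.02, SE 0.19). Cd36, a fatty acid translocase of hepatocytes, endothelium and macrophages, was at 7.78, 7.89 and 7.08 in DeltaKlf6, against 7.84, 8.54 and 8.16 in wildtype (log2 difference -0.60, SE 0.30, limma unadjusted p = 0.0797, adjusted p = 0.992). Its groups overlapped by 1 array, DeltaKlf6 2 above wildtype 1, and all 3 Cd36 probe sets were lower in DeltaKlf6 by group mean, at -0.60, -0.66 and -0.59. Cd36 was lowest in DeltaKlf6 3 on the probe set used and on 1 other, at 4.32 there. The remaining probe set was lowest in DeltaKlf6 2, at 4.98. By mean of log2 values, endothelial markers were lowest in DeltaKlf6 3, at 5.83 over 6 genes. The range was 5.83 to 6.61 over DeltaKlf6 and 6.30 to 6.61 in wildtype. Log2 of their summed level was 10.10 to 10.24 in DeltaKlf6 and 10.23 to 10.35 in wildtype. By group mean 3 of the 6 were lower in DeltaKlf6 and 3 higher. Kdr lay below wildtype in all 3 DeltaKlf6 arrays, at 5.60, 6.28 and 5.18, against 6.50, 6.63 and 6.54 in wildtype (log2 difference -0.87, SE 0.30). The brightest of the 6, Clec4g, was highest in DeltaKlf6 3, at 9.87. That array also had the lowest means of hepatocyte markers (10.99, wildtype 11.20 to 11.29) and stellate cell markers (5.43, wildtype 5.91 to 6.30). The part of endothelial cells in the Cd36 values was not tested.

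Set side by side, synthesis genes and droplet and lipolysis genes were not told apart by these arrays. The 26 synthesis genes had a median log2 difference of -0.21, with 15 lower and 11 higher, and the 16 droplet and lipolysis genes one of -0.02, with 8 lower and 8 higher, beside -0.01 over all genes. The synthesis median minus the droplet median was -0.19, and without DeltaKlf6 3 it was 0.0027. In single arrays the mean deviation of synthesis genes was 0.01, -0.06 and -0.25 in DeltaKlf6 1, 2 and 3, and that of droplet and lipolysis genes -0.19, -0.34 and 0.01. Synthesis minus droplet means were thus 0.20, 0.28 and -0.27 in DeltaKlf6, with wildtype arrays between -0.04 and 0.05. By mean, DeltaKlf6 3 thus differed in sign from DeltaKlf6 1 and 2. Medians gave another picture. The median deviation was 0.015, -0.091 and -0.257 for synthesis genes in DeltaKlf6 1, 2 and 3. For droplet and lipolysis genes it was -0.084, -0.0845 and -9e-04. By median, DeltaKlf6 2 thus did not share the sign of DeltaKlf6 1. At an unadjusted p under 0.05, 2 of 26 synthesis genes and 2 of 16 droplet and lipolysis genes were lower, beside 2.48% of all genes, and 1 and 0 were higher, beside 1.21%. Which side a gene belongs to was fixed by its role, and no test was made of the difference between the sides.

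**Figure D3:**
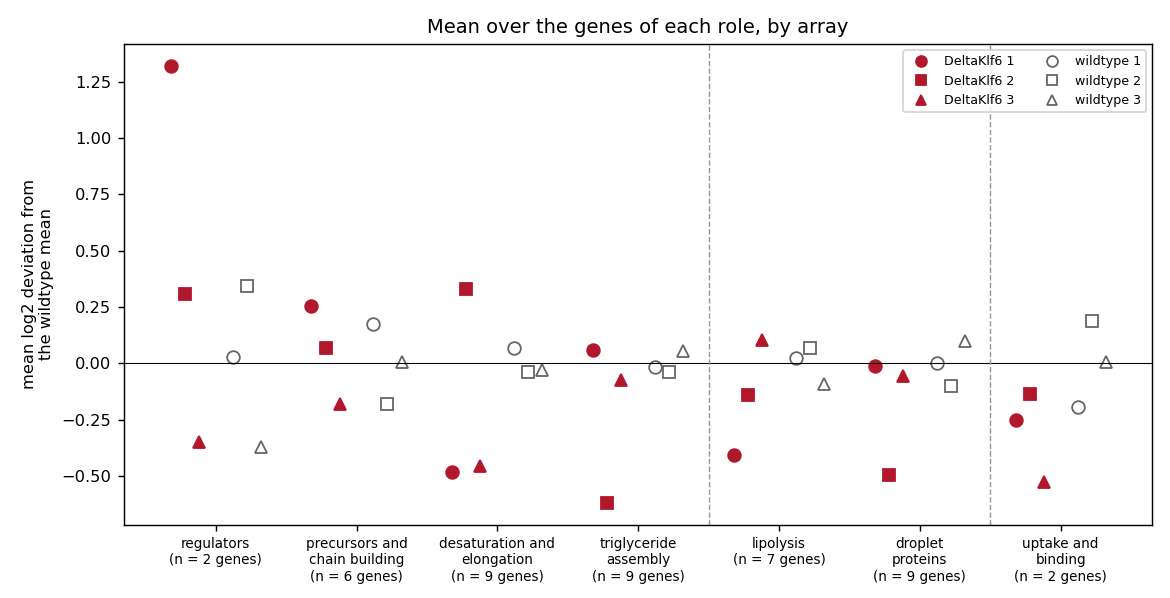
Mean deviation from the wildtype mean (vertical axis, log2 units) over the genes of each role, for each array. Red filled symbols are DeltaKlf6 and grey open symbols wildtype. The wildtype arrays are set against their own mean, which narrows their range. Dashed lines part synthesis (left), lipolysis and droplet proteins (middle) and uptake (right); the regulators, only 2 genes, reach 1.32 in DeltaKlf6 1, and triglyceride assembly falls to -0.62 in DeltaKlf6 2 while the other two DeltaKlf6 arrays stay near 0.

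The DeltaKlf6 arrays differed from each other more than the wildtype arrays did in these genes. The median SD of the 44 genes was 0.62 in DeltaKlf6, with wildtype at 0.30; over all genes it was 0.35 in DeltaKlf6, with wildtype at 0.24. The SD was larger in DeltaKlf6 for 36 of the 44, beside 68.1% of all genes. DeltaKlf6 1 lay below every wildtype array for 18 of the 44 and above for 14, beside 30.9% and 29% of all genes. DeltaKlf6 2 lay below for 16 and above for 12, beside 27.6% and 28%, and DeltaKlf6 3 below for 16 and above for 4, beside 35.1% and 27.2%. The single array that left the others differed by gene: DeltaKlf6 1 in Thrsp and Fads2, DeltaKlf6 2 in Elovl3, Lpin1 and Plin4.

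Other genes of these pathways, listed by function, gave the same count of 0 past the threshold. Of 25 further synthesis genes measured, 1 was higher and 0 lower at an unadjusted p under 0.05, beside 1.21% and 2.48% of all genes. Hacd4, of the hydroxyacyl-CoA dehydratase family that serves elongation, was at 3.79, 4.82 and 4.74 in DeltaKlf6, against 3.34, 3.63 and 3.46 in wildtype (log2 difference 0.97, SE 0.31). It lay above wildtype in all 3 DeltaKlf6 arrays. Its wildtype values were dim, close to the array medians of 3.30 to 3.45. Hacd1 (-0.50, groups not overlapping), the acyltransferase gene Agpat1 (-0.65) and Gpat2 (0.51) had an unadjusted p above 0.05. Of 24 further droplet, lipase and fatty acid transport genes, 4 were lower and 0 higher at that level, beside 2.48% and 1.21% of all genes, and the groups did not overlap for 7, all lower, beside 5.91%.

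Ddhd2, a triglyceride and phospholipid lipase, was at 7.03, 7.21 and 8.14 in DeltaKlf6, against 8.97, 8.25 and 8.84 in wildtype (log2 difference -1.22, SE 0.35). The endothelial lipase gene Lipg was at 6.17, 4.64 and 7.45 in DeltaKlf6, against 8.21, 7.64 and 7.71 in wildtype (log2 difference -1.77, SE 0.62). All 3 DeltaKlf6 arrays lay below wildtype for both. The fatty acid transport gene Slc27a4 (-0.71, SE 0.26) and Pnpla8 (-0.54, SE 0.21), a mitochondrial and peroxisomal phospholipase, had log2 differences of the same sign.

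Of 24 genes that control lipogenesis, 3 were lower and 0 higher at an unadjusted p under 0.05, again beside 2.48% and 1.21% of all genes. Ppara, the nuclear receptor of fatty acid oxidation and a known activator of Plin2 and Plin5, was at 6.79, 7.59 and 7.93 in DeltaKlf6, against 9.27, 8.98 and 8.90 in wildtype. The insulin receptor gene Insr was at 8.27, 8.23 and 8.52 in DeltaKlf6, against 9.08, 8.93 and 8.73 in wildtype. Both lay below wildtype in all 3 DeltaKlf6 arrays, with log2 differences of -1.61 (SE 0.31) for Ppara and -0.57 (SE 0.21) for Insr. The AMP-activated kinase genes Prkaa1 (-0.64, SE 0.21, all arrays under the array medians) and Prkaa2 (-0.53, SE 0.24) had the same sign.

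Of the 26 lipid genes with more than 1 probe set, 19 had the same sign in all of them and 7 did not (Abhd5, Dgat1, Dgat2, Fabp1, Fads2, Fads3 and Lipe). Dim probe sets were counted too, such as 1 each of Dgat1, Fads3 and Lipe and, among the 19, of Acaca. Across the alternatives of processing and the arrays left out, Fitm2, Mgll, Fads2 and Acacb were lower in DeltaKlf6 in every one of the 15 settings run for each, with an adjusted p above 0.05 in all. Gene Fitm2 had the narrowest range of these, -1.29 to -1.06, and Acacb the widest, -1.54 to -0.59. They were picked by low p in these same data. Variance trend, robust variances, the replicate block and the filter on dim genes cannot move a gene's difference. Scd1, Gpam, Dgat2, G0s2, Plin5, Hsd17b13 and Cd36 were likewise lower in all 15 settings, and Fasn and Fads3 were higher in every setting run.

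**Figure D4:**
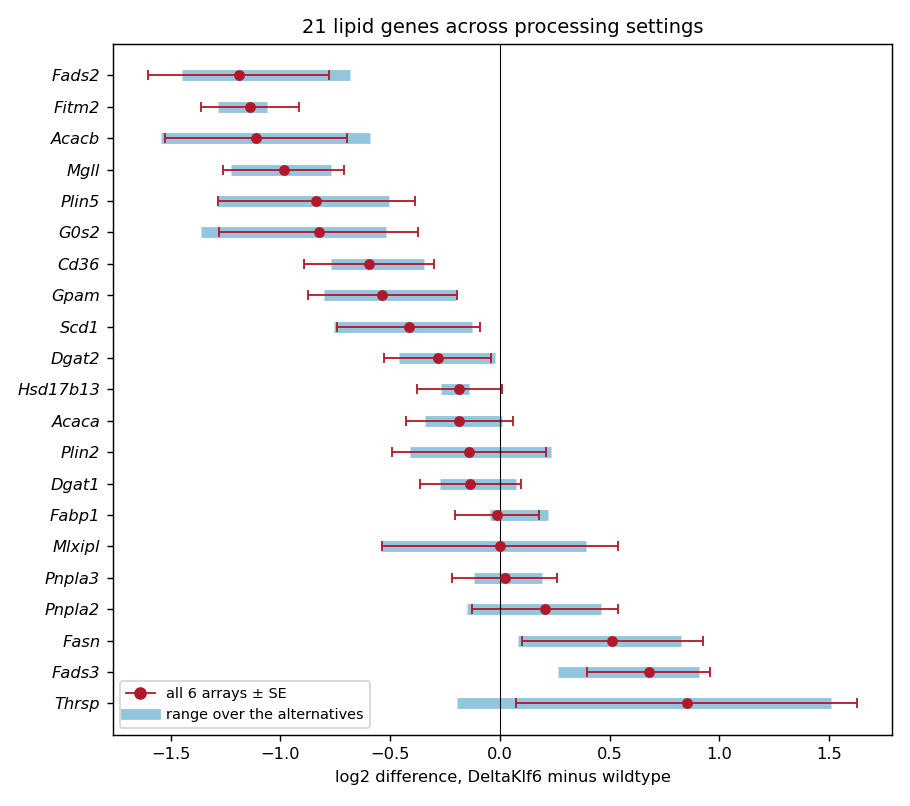
Log2 difference, DeltaKlf6 minus wildtype, of the lipid genes named by rule (horizontal axis), with the value from all 6 arrays ± SE as red points and bars and the range over 14 or 15 alternatives as blue bars. The blue bars of Fads2, Fitm2, Acacb and Mgll stay left of 0, and those of Thrsp, Mlxipl and Plin2 cross it. Those of Scd1, Gpam, Dgat2, G0s2, Plin5, Hsd17b13 and Cd36 also stay left of 0.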

How the data were processed

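Total RNA of remnant liver was hybridised to 6 one-channel Affymetrix arrays, 1 per animal (3 DeltaKlf6, 3 wildtype). The submitters' processing notes name RMA and Affymetrix Expression Console 1.2.1 as the source of the deposited log2 values. Their base was inferred from the highest value, 13.9, under the limit of 16 that the scanner sets. For genome build and probe annotation: not given in the sources used here. The number of arrays limits the precision.

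Gene names came from GEO's platform annotation: of 45141 probe sets, 28898 had 1 gene symbol, 551 several and 15692 none here. Symbols were checked against RefSeq (0 changed). Each of 17097 genes took its probe set of highest mean. Genotypes were compared with limma 3.58.1 in R 4.3.3 (lmFit, eBayes, two-sided, Benjamini-Hochberg over all genes, threshold 0.05), and the script was tested on simulated data. There 14% of simulated differences of log2 size 1 and 68% of size 2 had an adjusted p under 0.05. A count of 0 past the threshold thus does not show that differences of size 1 are absent. Groups and replicate numbers came from the sample titles; p-values measure the spread between these animals.

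The members, lists and named genes were chosen with earlier results of these data known. Per-array values are given for genes with non-overlapping groups, an unadjusted p under 0.1 or a preset place among landmark genes (such as Fasn, Dgat2, Plin2), and up to 4 genes of smallest p per further list; others given by array, namely Fitm1, Acly, Elovl3, Elovl6, Fads1, Lpin1, Lpin2 and Plin4, were chosen after their values were seen. The alternatives were other choices of probe set, a filter on dim genes, renormalization, other variance models, array weights, a replicate block and leaving out each array; counts of non-overlapping groups under them were added after seeing the data.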

Additional observations from a re-analysis of the deposited data

Results flagged for a closer look

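A pair of array control measures, which enter no gene test, were higher in DeltaKlf6 3 than in every wildtype array. The hybridization controls averaged 11.22 in that array, against 10.16 to 10.34 in wildtype. The Gapdh 3'-minus-5' signal was 4.83 there, against 4.06 to 4.43 in wildtype. In DeltaKlf6 1 and 2 both measures lay under the wildtype range. The actin 3'-minus-5' signal of DeltaKlf6 3 was 5.05, within the wildtype range of 4.86 to 5.39. The part of these differences in the lipid gene values was not tested; Fitm2 and Mgll lay below wildtype in all 3 DeltaKlf6 arrays.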

How the results depend on the processing

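The number of genes past the adjusted threshold was 0 under every alternative run. The number of genes at an unadjusted p under 0.05 was 631, and 331 without dim genes, where fewer genes were tested, and 379 to 1546 with 1 array left out. Lipid genes at that level numbered 5 (beside 3.69% of all genes), and 3 when a gene's probe sets were averaged (3.37%), 8 with array weights (5.32%), 6 with the replicate block (4.11%), and 2 to 11 with 1 array left out (2.22% to 9.04%). Those with non-overlapping groups numbered 4, all lower, beside 5.91% of all genes lower and 3.41% higher. They numbered 1 with the mean of probe sets and 8 after quantile normalization again. With 1 array left out, where smaller groups separate more easily, they numbered 5 to 15. The 15, without DeltaKlf6 3, stood beside 12.8% of all genes lower and 12.6% higher. Shares over all genes were not computed for the mean of probe sets, the renormalization or a wildtype array left out. The synthesis median of -0.21 ran from -0.24 to -0.067 with 1 array left out. The droplet and lipolysis median of -0.02 was -0.19 without dim genes and 0.043 with array weights, and ran from -0.14 to 0.14 with 1 array left out. Their difference of -0.19 ran from -0.35 to 0.0027. With 1 array left out the log2 difference changed sign in Mlxipl (-0.54 to 0.39), Thrsp (-0.19 to 1.51), Acaca (-0.34 to 0.0095), Pnpla2 (-0.15 to 0.46), Pnpla3 (-0.12 to 0.19), Plin2 (-0.41 to 0.23) and Fabp1 (-0.043 to 0.032). Median-centred arrays gave Mlxipl -0.012 and quantile normalization again gave Pnpla3 -0.004. Without probe sets shared between transcripts Dgat1, there on a dim probe set, was at 0.073 and Fabp1 at 0.22, and the mean of probe sets gave Fabp1 0.10. Apart from the choice of probe set, the cause was not tested. With the replicate block 703 genes had an unadjusted p under 0.05, and 0 had an adjusted p under 0.05. At the unadjusted level the block added G0s2 (limma unadjusted p = 0.0254, adjusted p = 0.981) and Plin5 (0.0211, adjusted p = 0.981) and lost Fads3 (0.0536, adjusted p = 0.981). It left 6 lipid genes lower and 0 higher. Same-numbered arrays had correlations of 0.00, 0.26 and 0.08 between their deviations from the group means. DeltaKlf6 2 and wildtype 2 were each other's best match by this measure. Wildtype 3 best matched DeltaKlf6 3 but not the reverse, and the arrays numbered 1 matched in neither direction. The numbers were not treated as pairs in the main comparison.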
